A study of Homo sapiens with 3 samples.

Results

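Albumin (ALB), alpha-fetoprotein (AFP) and 7 other genes of the hepatocyte carrier and secretory program were followed in 3 hepatocellular carcinoma (HCC) cell lines. The 9 genes, ALB, AFP, AHSG, TTR, TF, GC, AMBP, GPC3 and RBP4, were chosen by symbol from 16149 genes listed in at least 1 library, with earlier results of these data known, so that their own values are given as a description. Of the 9, 8 were listed in at least 1 library, the parent and subclone 1 listing 6 each and subclone 2 listing 8, and a level of 0 was given wherever a library did not list the gene. The parent was the human HCC line HCCLM3, labelled as low in metastatic ability, although the study's methods describe its red fluorescent form, HCCLM3-R, as highly metastatic. By their labels, subclone 1 metastasized to the lung and subclone 2 to the celiac lymph node as well as the lung. The study grew its subclones from single cells of lung and lymph node metastases that HCCLM3-R had formed in nude mice, and the clone behind each library is not named in the labels. All 3 lines were cultured in DMEM with no treatment named, and the study's methods list fetal bovine serum in the medium of HCCLM3-R. From each line 1 library was made, so every difference is a difference between libraries with no replicate check.

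Hepatocytes secrete most of the proteins that carry small molecules in blood plasma. Albumin carries fatty acids, bilirubin and many drugs, and AFP, its fetal counterpart, falls silent after birth and often returns in HCC, where it serves as a blood marker. ALB, AFP, AFM (afamin) and GC form the albumin gene family, a cluster on chromosome 4 whose promoters are read by liver-enriched factors such as CEBPA and the FOXA proteins. Transferrin (TF) carries iron, transthyretin (TTR) carries thyroxine and holds the retinol-binding protein RBP4 in plasma, GC carries vitamin D, fetuin-A (AHSG) binds calcium phosphate, AMBP is the precursor of alpha-1-microglobulin and bikunin, and the surface proteoglycan glypican-3 (GPC3) is a second oncofetal marker of HCC.

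ALB lay on the forward strand of chromosome 4, with a whole-gene span of chr4:73397114-73421412 in GRCh38 (GENCODE annotation). The span of AFP began 9726 bases after that of ALB ended, at chr4:73431138-73456174 on the same strand. The RefSeq starts used below lie further along each gene, so both printed windows fall inside these spans. The 250 bases before the RefSeq start of each gene (GRCh38.p14, forward strand) are printed because ALB and AFP are neighbours of 1 family with unequal values in these libraries, and 6 of the 9 genes (ALB, AFP, AHSG, AMBP, TF and RBP4) matched a promoter entry. Capitals mark 2 motifs searched on both strands: the CCAAT box (reverse ATTGG) and the TATA box TATAAA (reverse TTTATA).
ALB, chr4:73404037-73404286: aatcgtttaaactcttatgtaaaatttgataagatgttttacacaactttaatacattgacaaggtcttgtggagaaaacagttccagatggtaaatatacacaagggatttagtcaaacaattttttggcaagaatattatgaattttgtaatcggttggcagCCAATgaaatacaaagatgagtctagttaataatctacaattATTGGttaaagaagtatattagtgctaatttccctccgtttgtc
AFP, chr4:73435971-73436220: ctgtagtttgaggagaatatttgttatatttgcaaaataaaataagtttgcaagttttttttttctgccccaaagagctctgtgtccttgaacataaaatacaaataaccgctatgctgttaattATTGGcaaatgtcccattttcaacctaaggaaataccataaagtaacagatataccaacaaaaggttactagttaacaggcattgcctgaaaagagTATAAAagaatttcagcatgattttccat
CCAAT boxes were found in both sequences, on the forward strand in ALB 86 to 82 bases before the start and in reverse in ALB and AFP, and in 32.0% of all 35116 promoters of the same length. TATAAA was found in AFP, 29 to 24 bases before its start, and in 10.7% of all promoters, and these letters were not in the ALB window. No motif match overlapped another in these 2 sequences, and each match is a description of letters, not of a bound site.

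Levels are given as RPKM, reads scaled to gene length and to the library total, so that genes can be compared with each other. The deposited values are whole reads divided by a length and a library total, and the totals recovered from them were 4488825 reads (parent), 4609696 reads (subclone 1) and 4725150 reads (subclone 2). Intervals are exact 95% intervals on the recovered reads and cover counting error only, not the spread between cultures. A log2 ratio was taken between RPKM values after adding 0.1, which understates ratios of low genes, and a gene was called higher or lower from 2-fold on this scale. Of the 9 genes, 6 (ALB, AFP, AHSG, TF, AMBP and RBP4) had a mean RPKM of at least 1, as did 11370 of all genes, which serve as the background. In RNA from a whole culture, fewer cells making a transcript and less of it per cell cannot be told apart.

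The cells carried epithelial liver markers but little of the mature hepatocyte program. The keratins KRT8 (1614, 1641 and 1742 RPKM in the parent, subclone 1 and subclone 2) and KRT18 (953, 1075 and 1048) were abundant, and the hepatocyte nuclear factor HNF4A stood at 11.7, 11.9 and 16.0 RPKM. In contrast, APOA1 had 1, 3 and 2 reads and SERPINA1, the alpha-1-antitrypsin gene, had 1, 4 and 1. APOB, which builds low-density lipoprotein, stood at 0.300, 1.23 and 4.17 RPKM, above the parent by 4.10-fold (2.46 to 7.16) in subclone 1 and 13.9-fold (8.73 to 23.4) in subclone 2. Of the 8 hepatocyte markers, 4 were at least 2-fold higher in subclone 1 and 3 in subclone 2 (ALB and TTR among them), and none was lower, beside 4.9% and 5.33% higher among the background genes. In each subclone 2 of these, ALB and APOB, had a mean RPKM of at least 1, and the others rested on at most 4 reads. Their summed level was 2582, 2779 and 2880 RPKM.

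Markers of other cells were mixed. The biliary list held abundant KRT19 (178, 229 and 229 RPKM) and SPP1 (603, 390 and 199 RPKM), and its sum was 801, 631 and 442 RPKM. KRT7 was lower than in the parent in both subclones (14.4, 3.46 and 6.04 RPKM). The fibroblast sum was 15.7, 31.2 and 24.3 RPKM, with DCN at 0.773, 4.42 and 2.75 RPKM and LUM at 10.1, 24.0 and 21.0 RPKM, while COL1A1 had 9, 11 and 1 reads, COL1A2 1, 1 and 0, and PDGFRB was listed in no library. COL3A1 went the other way, with 4.42, 2.21 and 0.463 RPKM. The endothelial sum was 5.11, 11.9 and 7.60 RPKM, mostly PECAM1 (3.33, 9.81 and 4.46 RPKM) and KDR (1.36, 1.93 and 3.08 RPKM), while CDH5 had 0, 1 and 0 reads and VWF 2, 1 and 1. The leukocyte sum was 76.7, 114 and 101 RPKM, nearly all CD68, while PTPRC had 2, 0 and 0 reads and CD3E was listed in no library. Of the 7 fibroblast genes 2 (DCN and LUM) were at least 2-fold higher in each subclone. In subclone 2, 2 (COL1A1 and COL3A1) were lower, and in subclone 1, 0. Of the 5 endothelial genes 1 was higher and 1 lower in each. Of the 6 biliary genes 0 were higher, with 1 lower in subclone 1 and 2 in subclone 2. Of the 6 leukocyte genes 1 was higher in subclone 1 and 0 in subclone 2, with 1 lower in each. The background shares were 4.9% higher and 1.82% lower in subclone 1, and 5.33% and 2.16% in subclone 2. DCN, LUM and PECAM1 were above the parent in both subclones, as ALB was, and the part of any other cell in the carrier values was not tested.

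ALB differed most between the libraries. It had 2.46 RPKM in the parent (25 reads, interval 1.59 to 3.63), 49.5 RPKM in subclone 1 (517 reads, 45.4 to 54.0) and 68.8 RPKM in subclone 2 (736 reads, 63.9 to 74.0). The parent was far below both subclones, and no interval overlapped another. ALB ranked 9736th by level among the listed genes of the parent, 1467th in subclone 1 and 1021st in subclone 2. Subclone 1 was 20.1-fold above the parent (13.5 to 31.4), the 19th highest log2 ratio (4.28) among the 11370 background genes, and subclone 2 was 28.0-fold above it (18.8 to 43.5), the 12th highest (4.75). Between the subclones ALB was 1.39-fold higher in subclone 2 (1.24 to 1.56), a small gap beside that to the parent.

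AFP, in contrast, was low in all 3 libraries. Its level was 2.41 RPKM in the parent (22 reads, 1.51 to 3.65), 4.16 in subclone 1 (39 reads, 2.96 to 5.69) and 4.27 in subclone 2 (41 reads, 3.06 to 5.79). The intervals of all 3 libraries overlapped. The ratio over the parent was 1.73 in subclone 1 (0.999 to 3.06) and 1.77 in subclone 2 (1.03 to 3.12), and subclone 2 over subclone 1 was 1.03 (0.645 to 1.63). In the parent ALB and AFP were level with each other, at an ALB to AFP ratio of 1.02 (0.552 to 1.90). That ratio of levels was 11.9 in subclone 1 (8.59 to 16.9) and 16.1 in subclone 2 (11.8 to 22.6), with no overlap between either subclone and the parent.

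Neither AFP nor ANKRD17, the protein-coding genes on either side of ALB, shared its ratio. ANKRD17, an ankyrin-repeat gene on the other side of ALB, stood at 20.7, 19.5 and 18.8 RPKM, with log2 ratios over the parent of -0.09 and -0.14. AFM, the family member after AFP, had 0, 1 and 2 reads, too few to compare its ratio with that of ALB. GC, which lies apart from them at chr4:71741693-71804041 on the reverse strand, was listed only in subclone 2, with 2 reads (0.209 RPKM, 0.0253 to 0.755). Its neighbour SLC4A4, a bicarbonate transporter gene, stood at 3.33, 4.43 and 6.22 RPKM, and NPFFR2, a neuropeptide receptor gene on the other side, had 1, 0 and 2 reads. Within the albumin family, then, ALB alone reached more than 5 RPKM in any library.

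**Figure D1:**
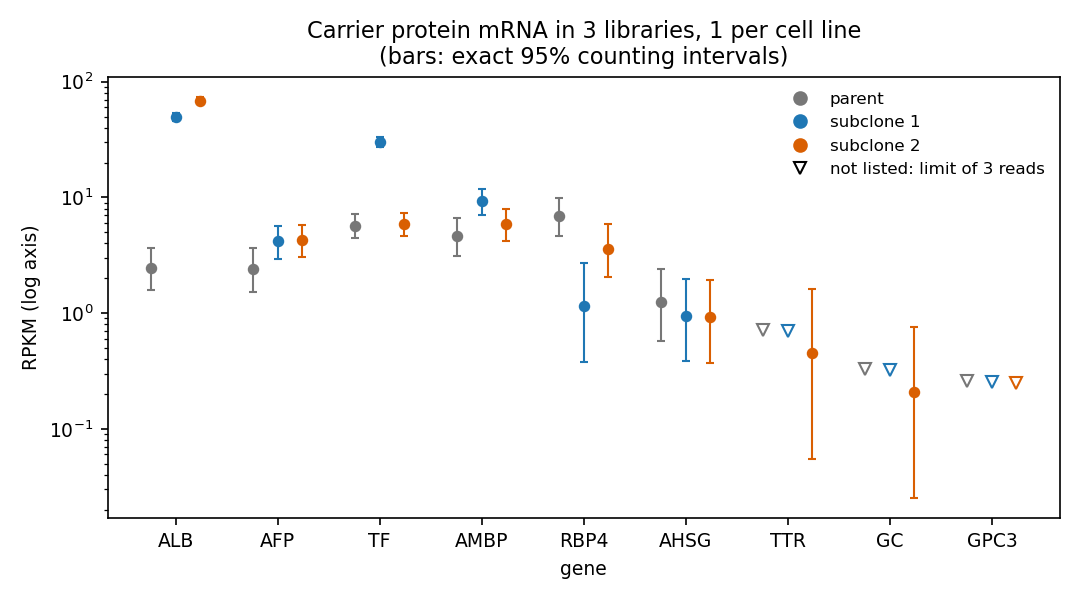
RPKM of the 9 carrier genes (log axis) in the parent, subclone 1 and subclone 2, 1 library each, with exact 95% counting intervals; open triangles mark the level of 3 reads for genes not listed in a library. ALB stands at 49.5 and 68.8 RPKM in the subclones against 2.46 in the parent, TF is high in subclone 1 only (30.3 RPKM), and RBP4 is lowest there (1.15 RPKM).

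TF, the iron carrier, was high in subclone 1 and alike in the other libraries. It had 5.71 RPKM in the parent (72 reads, 4.47 to 7.19), 30.3 in subclone 1 (392 reads, 27.4 to 33.4) and 5.88 in subclone 2 (78 reads, 4.65 to 7.34). Subclone 1 did not overlap either of the others, and the parent and subclone 2 overlapped almost wholly. The subclone 1 level was 5.30-fold that of the parent (4.11 to 6.92), rank 91 of 11370 by log2 ratio (2.39), and subclone 2 over the parent was 1.03 (0.737 to 1.44). Subclone 2 was 5.15-fold below subclone 1 (4.03 to 6.66), rank 32 from the bottom of 11370 genes. TF lay at chr3:133745956-133796640 on the forward strand.

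TFRC, the transferrin receptor, did not share this pattern, with 143, 136 and 143 RPKM. Its ratio over the parent was 0.947 in subclone 1 (0.902 to 0.994) and 0.996 in subclone 2 (0.95 to 1.04). The receptor was 25.1 times the level of its ligand in the parent (19.9 to 32.2), 4.48 times in subclone 1 (4.04 to 4.99) and 24.3 times in subclone 2 (19.4 to 30.8). The other transferrin receptor, TFR2, was listed in no library.

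RBP4, the retinol carrier, had its lowest level in subclone 1, where TF was highest. RBP4 stood at 6.87 RPKM in the parent (29 reads, 4.60 to 9.86), 1.15 in subclone 1 (5 reads, 0.374 to 2.69) and 3.60 in subclone 2 (16 reads, 2.06 to 5.84). The intervals of the parent and subclone 1 did not overlap, and subclone 2 lay between them and overlapped both. Subclone 1 was 5.96-fold below the parent (2.28 to 19.7; log2 ratio -2.48) and subclone 2 was 1.91-fold below it (1.00 to 3.76; log2 ratio -0.91). Subclone 2 over subclone 1 was 3.12 (1.09 to 10.9). RBP4 lay at chr10:93591687-93601744 on the reverse strand. STRA6, its cell-surface receptor, had 19.3, 26.3 and 19.5 RPKM, a ratio over the parent of 1.36 in subclone 1 (1.16 to 1.60) and 1.01 in subclone 2 (0.855 to 1.20).

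TTR, which holds RBP4 in plasma, was at the edge of detection. The gene lay at chr18:31557010-31599021 on the forward strand. It was not listed in the parent or in subclone 1, where 3 reads would give 0.713 and 0.694 RPKM, and had 2 reads in subclone 2 (0.451 RPKM, 0.0546 to 1.63). No fold can be given for TTR or GC, since no library held more than 3 reads of either. Their log2 ratios in subclone 2, 2.46 and 1.63, pass 2-fold on 2 reads against 0, and the added 0.1 RPKM sets their size.

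AMBP was moderately expressed and highest in subclone 1. It had 4.61 RPKM in the parent (30 reads, 3.11 to 6.58), 9.28 in subclone 1 (62 reads, 7.11 to 11.9) and 5.84 in subclone 2 (40 reads, 4.17 to 7.95). Subclone 1 did not overlap the parent, and subclone 2 overlapped both. The ratio over the parent was 2.01 in subclone 1 (1.28 to 3.22) and 1.27 in subclone 2 (0.769 to 2.11). Subclone 2 over subclone 1 was 0.629 (0.412 to 0.952), an interval that left out 1 although those of the levels overlapped. With 0.1 added, the log2 ratio in subclone 1 was 0.99, just inside the 2-fold line, so that AMBP was not counted as higher. AMBP lay at chr9:114060127-114078472 on the reverse strand.

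Bikunin from AMBP is joined to the ITIH heavy chains in inter-alpha-trypsin inhibitors, and of the 4 heavy chain genes examined ITIH2 alone was expressed beyond 2 reads in any library. ITIH2 stood at 34.8 RPKM in the parent (499 reads), 11.3 in subclone 1 (166 reads) and 53.2 in subclone 2 (804 reads), so the subclones lay on opposite sides of the parent. The ratio over the parent was 0.324 in subclone 1 (0.270 to 0.387) and 1.53 in subclone 2 (1.37 to 1.71). ITIH2 exceeded AMBP by 7.54-fold in the parent (5.22 to 11.3), by 1.21-fold in subclone 1 (0.902 to 1.65) and by 9.11-fold in subclone 2 (6.63 to 12.9).

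AHSG was close to the limit in each library. It had 1.26 RPKM in the parent (9 reads, 0.575 to 2.39), 0.953 in subclone 1 (7 reads, 0.383 to 1.96) and 0.929 in subclone 2 (7 reads, 0.374 to 1.91). All intervals overlapped, and the ratios over the parent, 0.757 (0.24 to 2.29) and 0.739 (0.234 to 2.23), rest on too few reads to tell the levels apart. AHSG lay at chr3:186612923-186621318 on the forward strand, beside its paralog FETUB, which had 0, 2 and 1 reads.

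GPC3, at chrX:133535745-133985895 on the reverse strand, was listed in no library. With the 2568-base GENCODE transcript, 3 reads would have given 0.260, 0.253 and 0.247 RPKM in the parent, subclone 1 and subclone 2, the limit that a count of 0 allows. Of the other 5 glypicans, GPC1 had 78.5, 49.0 and 29.7 RPKM, a ratio over the parent of 0.624 (0.572 to 0.682) and 0.378 (0.341 to 0.419). GPC6 had 3.60, 9.39 and 6.16 RPKM, above the parent by 2.61-fold (2.10 to 3.26) in subclone 1 and 1.71-fold (1.35 to 2.17) in subclone 2. GPC2 had 3, 1 and 1 reads, and GPC4 and GPC5 were listed in no library.

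Counted together, the carrier genes did not move as a block. In subclone 1 over the parent, 2 of the 9 (ALB and TF) were at least 2-fold higher, against 4.9% of the background, and 1 (RBP4) was lower, against 1.82%. In subclone 2 over the parent, 3 (ALB, TTR and GC) were higher, against 5.33%, of which ALB alone had a mean RPKM of at least 1, and 0 were lower, against 2.16%. In subclone 2 over subclone 1, 3 (RBP4, TTR and GC) were higher, against 1.42%, and 1 (TF) was lower, against 1.39%. Of those 3, RBP4 alone had a mean RPKM of at least 1, the filter of the background. The genes were chosen with these values known, and nothing is read from these shares. Over the 6 genes listed in all libraries the median log2 ratio was 0.88 in subclone 1 over the parent, 0.19 in subclone 2 over the parent and 0.00 between the subclones, beside 0.00, 0.04 and 0.03 over the background. Over all 9 it was 0.00, 0.33 and 0.04. The first pair of comparisons shares the parent library, so a low parent value enters both.

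**Figure D2:**
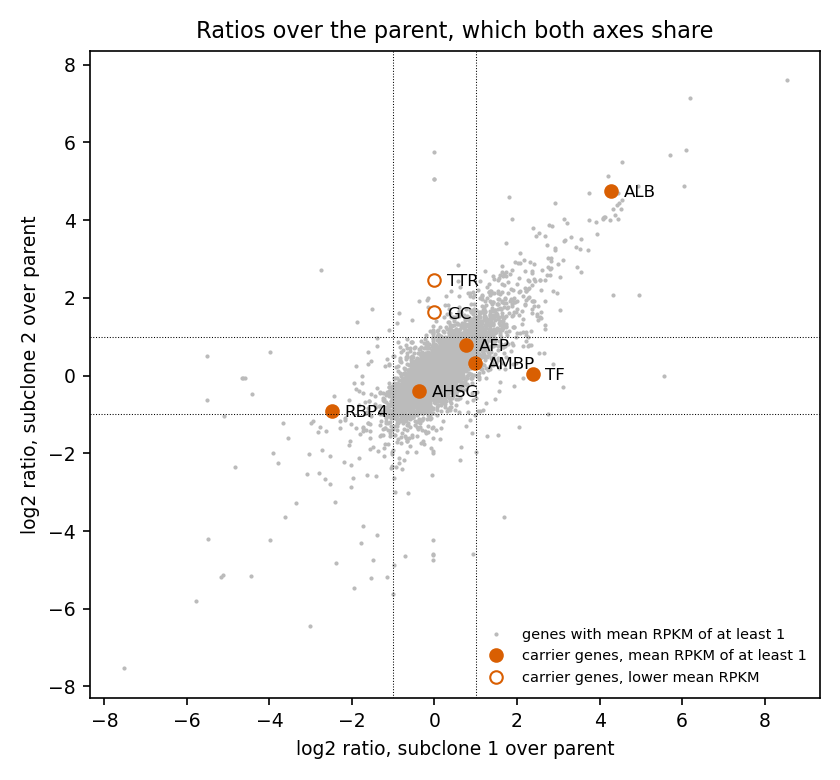
Log2 ratio of RPKM (0.1 added) in subclone 1 over the parent against subclone 2 over the parent, for the 11370 background genes (grey), 6 carrier genes above that mean (filled) and TTR and GC below it (open, 2 reads in subclone 2); dotted lines mark 2-fold. ALB lies at 4.28 and 4.75, TF at 2.39 and 0.04, and RBP4 at -2.48 and -0.91; both axes share the parent library.

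The order of levels within a library changed with ALB and RBP4, while TF kept its place. In the parent the order was RBP4, TF, AMBP, ALB, AFP and AHSG, and only AMBP over ALB (1.87-fold, 1.07 to 3.32) differed between neighbours by more than counting error. Subclone 1 ran ALB, TF, AMBP, AFP, RBP4 and AHSG, where each neighbour differed from the next except RBP4 and AHSG (1.21-fold, 0.303 to 4.43). Subclone 2 ran ALB, TF, AMBP, AFP, RBP4, AHSG, TTR and GC, with ALB 11.7-fold above TF (9.26 to 15.0) no separation by counting error from TF to AMBP, AMBP to AFP or AFP to RBP4, and RBP4 3.87-fold above AHSG (1.51 to 11.1). RBP4 was 2.79 times the level of ALB in the parent (1.58 to 4.97) and 0.0233 (0.00752 to 0.0547) and 0.0523 (0.0297 to 0.0855) of it in the subclones.

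The summed level of the 9 genes was 23.3 RPKM in the parent against 95.4 and 90.0 in subclones 1 and 2. ALB made up 10.6%, 51.9% and 76.5% of these sums. Without ALB the sums were 20.9, 45.8 and 21.2 RPKM, so that subclone 2 stood beside the parent and subclone 1 above both, and TF made up most of that excess.

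**Figure D3:**
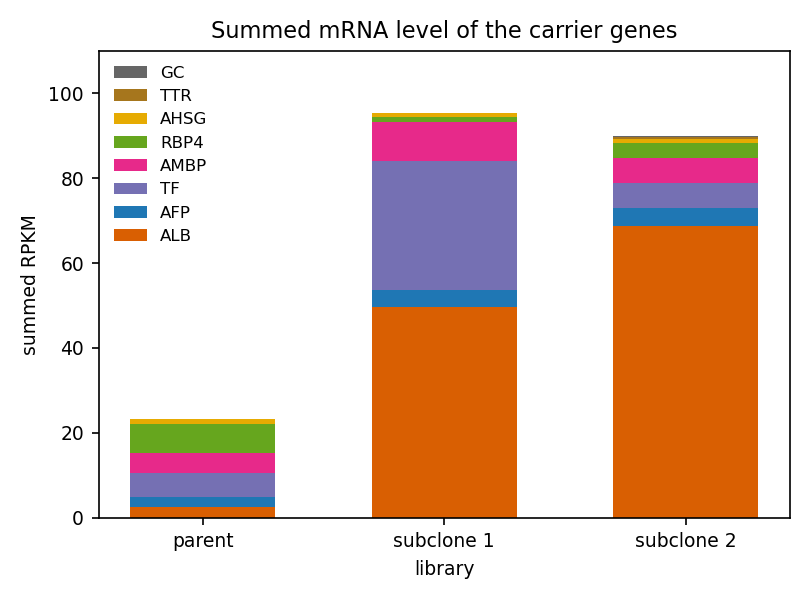
Summed RPKM of the carrier genes in the parent, subclone 1 and subclone 2 (1 library each, no error shown), stacked by gene. The sums are 23.3, 95.4 and 90.0 RPKM, with ALB (bottom) at 2.46, 49.5 and 68.8 RPKM and TF at 5.71, 30.3 and 5.88 RPKM.

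The genes nearest to ALB in the plane of both ratios over the parent, by Euclidean distance over 3 libraries, were SMEK3P (0.17), SNORD88B (0.36) and MIR1273 (0.37), each at 0 in the parent and at no more than 2.5 RPKM in the subclones, so that their place rests on the added 0.1 RPKM. Those nearest to AFP were MAN2B2 (distance 0.01; 6.72, 11.6 and 11.8 RPKM), a lysosomal mannosidase gene, CRB3 (0.02; 3.19, 5.43 and 5.68 RPKM), an apical polarity gene, and CA12 (0.02; 124, 213 and 213 RPKM), a carbonic anhydrase gene. GPC3 had no place in the plane.

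Other plasma carriers of hepatocytes were mostly near 0. Of 16 such genes, 14 were listed and 3 had a mean RPKM of at least 1: ceruloplasmin (CP), which carries copper, transcobalamin (TCN2), which carries vitamin B12, and orosomucoid (ORM1). CP was the most abundant at 42.8, 125 and 117 RPKM (897, 2701 and 2581 reads), above the parent by 2.93-fold (2.72 to 3.17) in subclone 1 and 2.73-fold (2.53 to 2.95) in subclone 2. CP was thus higher in both subclones, as ALB was, by a smaller ratio: the CP to ALB ratio of levels was 17.4 in the parent (11.7 to 27.0), 2.53 in subclone 1 (2.30 to 2.79) and 1.70 in subclone 2 (1.56 to 1.85).

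TCN2 stood at 8.79, 13.2 and 9.86 RPKM, with a ratio over the parent of 1.5 in subclone 1 (1.13 to 2.0) and 1.12 in subclone 2 (0.829 to 1.52). SERPINA6, the cortisol carrier, had 0, 9 and 6 reads. Its levels in subclones 1 and 2 were 2.92 and 1.90 times that of 3 reads in the parent. The counting intervals of its ratio over the parent began at 1.92 and 1.12. ORM2 had 0, 4 and 5 reads and ORM1 had 3, 6 and 4, with counting intervals that hold a ratio of 1. The ORM genes are near-identical copies, so their reads may be split between them. SEPP1, the selenium carrier, had 2, 3 and 9 reads and KNG1, the kininogen gene, 2, 2 and 5. AFM, FETUB, HP, HPX, HRG and SHBG had at most 2 reads in any library, SERPINA1 at most 4, and A1BG and SERPINA7 were listed in none. On the log2 scale 7 of the 16 were at least 2-fold higher in subclone 1 and 0 lower, and 6 higher and 2 lower in subclone 2, beside background shares of 4.9% and 1.82%, and of 5.33% and 2.16%. CP alone among them passed the mean of 1, CP and SERPINA6 alone had counting intervals that left out 1, and the others rested on at most 9 reads. The median over the 7 listed in all libraries was 0.58 and 0.31.

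Among the genes that receive or recycle the carriers, FCGRT moved with ALB. FCGRT, the neonatal Fc receptor that returns albumin to the circulation, stood at 8.83, 19.6 and 21.0 RPKM (75, 171 and 188 reads), above the parent by 2.22-fold (1.68 to 2.95) in subclone 1 and 2.38-fold (1.81 to 3.16) in subclone 2. It was the only one of the 11 receptor genes that, at a mean RPKM of 1 or more, passed 2-fold in either direction. HFE, which binds TFRC, had 5.11, 8.20 and 6.76 RPKM, and VDR, the nuclear receptor for the vitamin that GC carries, had 1.76, 1.59 and 2.59 RPKM. The endocytic receptors LRP2, CUBN and AMN, the asialoglycoprotein receptor genes ASGR1 and ASGR2 and TFR2 stayed below 0.6 RPKM in each library. By log2 ratio 1 of the 11 was higher and 0 lower in subclone 1, beside background shares of 4.9% and 1.82%. In subclone 2, 3 were higher (FCGRT, AMN and ASGR2) and 1 lower (ASGR1), beside 5.33% and 2.16%. In that count AMN, ASGR2 and ASGR1 rested on at most 3 reads.

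Most of the factors known to act on the ALB and AFP genes were listed in each library, with smaller ratios than ALB. Of 12 such genes examined 10 had a mean RPKM of at least 1. CEBPA stood at 35.3, 40.5 and 49.3 RPKM, CEBPB at 28.5, 31.5 and 30.3 and FOXA2 at 20.5, 21.8 and 22.0. In subclone 1 the ratio over the parent was 1.15 for CEBPA (1.00 to 1.31) and 1.01 for HNF4A (0.817 to 1.26), and in subclone 2 it was 1.40 (1.23 to 1.59) and 1.37 (1.12 to 1.67). CEBPB and FOXA2 had counting intervals that held a ratio of 1 in both subclones, and what any factor contributes to the ALB level was not tested.

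FOXA1 differed in subclone 2, with 7.63, 8.96 and 21.7 RPKM, a ratio of 1.17 to the parent in subclone 1 (0.902 to 1.53) and of 2.85 in subclone 2 (2.28 to 3.58). NR5A2, the liver receptor homolog, was low but higher in both subclones, with 0.617, 1.59 and 2.60 RPKM (14, 37 and 62 reads), 2.57-fold (1.36 to 5.15) and 4.21-fold (2.33 to 8.14). PROX1, a hepatoblast factor, stood at 3.17, 0.773 and 2.47 RPKM, 0.243 of the parent in subclone 1 (0.113 to 0.479) and 0.777 in subclone 2 (0.486 to 1.24). FOXA3 had 14, 1 and 5 reads and ONECUT1 had 0, 1 and 3. The AFP repressors ZHX2 (1.94, 2.98 and 2.95 RPKM), ZBTB20 (2.95, 2.58 and 2.07 RPKM) and ZFHX3 (3.92, 3.35 and 3.43 RPKM) were low throughout. By log2 ratio 2 of the 12 (NR5A2 and ONECUT1) were higher and 2 (FOXA3 and PROX1) lower in subclone 1, and 3 (FOXA1, NR5A2 and ONECUT1) higher and 1 (FOXA3) lower in subclone 2, beside the same background shares as for the plasma carriers. At a mean RPKM of at least 1 these counts were 1 and 1 in subclone 1 and 2 and 0 in subclone 2, and ONECUT1 rested on 1 and 3 reads against 0.

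Of 8 other oncofetal genes of the liver, H19 moved with ALB. This imprinted noncoding RNA of the fetal liver stood at 142, 832 and 778 RPKM (1481, 8903 and 8532 reads), above the parent by 5.85-fold (5.54 to 6.19) in subclone 1 and 5.47-fold (5.18 to 5.79) in subclone 2. IGF2, its neighbour, and DLK1 were listed in no library. SPINK1, a trypsin inhibitor secreted by many HCCs, was higher in subclone 2 only, with 11.3, 10.03 and 45.2 RPKM, a ratio over the parent of 0.889 in subclone 1 (0.468 to 1.68) and 4.01 in subclone 2 (2.52 to 6.62). PEG10, a retrotransposon-derived imprinted gene, had 23.5, 12.5 and 12.2 RPKM, 0.533 (0.469 to 0.604) and 0.518 (0.456 to 0.588) of the parent, which by log2 ratio did not pass 2-fold. The fetal RNA-binding proteins IGF2BP1 (18.7, 19.96 and 17.4 RPKM) and IGF2BP3 (41.6, 47.3 and 45.1 RPKM) stayed within 1.2-fold of the parent, and LIN28B had 1 read in subclone 2. Across the list 1 of 8 (H19) was higher in subclone 1 and 2 (H19 and SPINK1) in subclone 2, beside background shares of 4.9% and 5.33%. In either subclone 0 were lower, beside 1.82% and 2.16%.

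**Figure D4:**
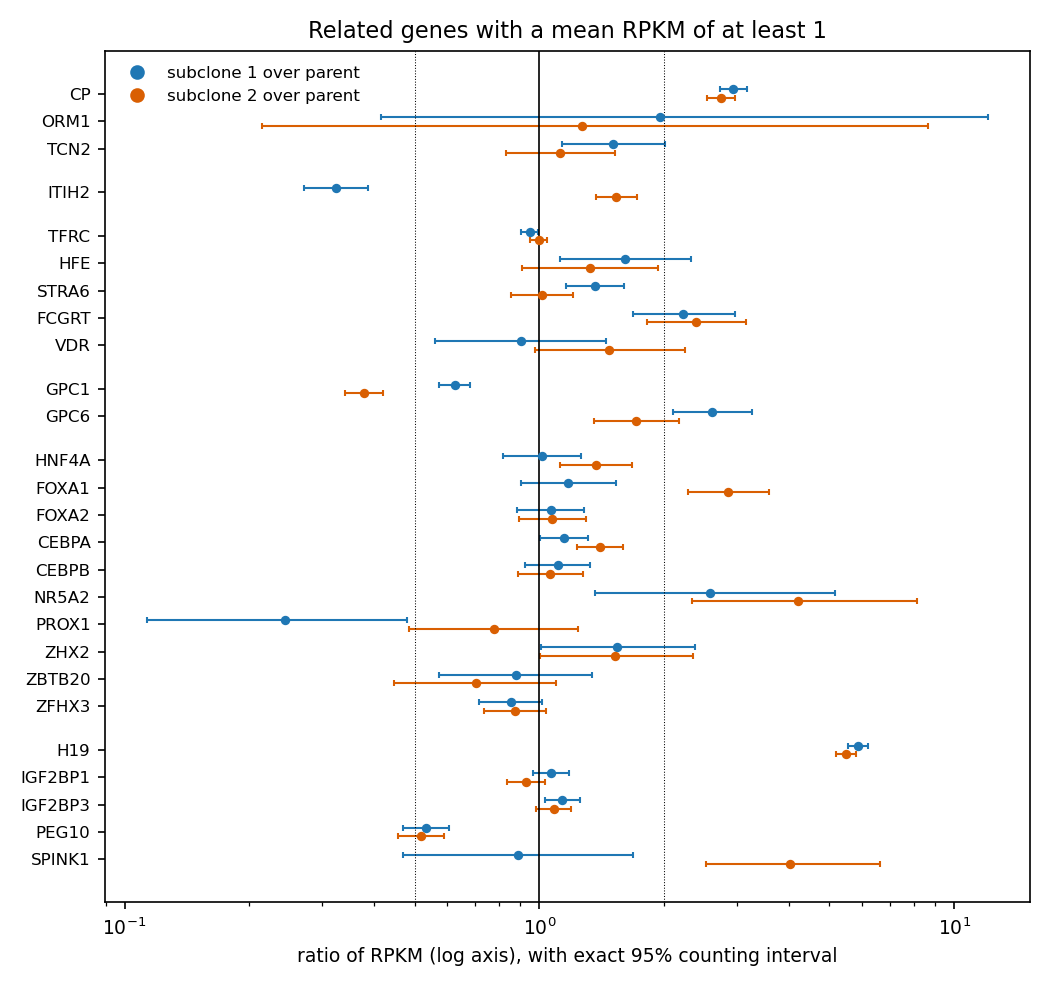
Ratio of RPKM over the parent (log axis) in subclone 1 and subclone 2 for related genes averaging 1 RPKM or more, in the order plasma carriers, heavy chain, receptors, glypicans, transcription factors and oncofetal genes; points are ratios of 1 library each and bars exact 95% counting intervals. CP, FCGRT, NR5A2 and H19 lie above 2-fold in both subclones, and ITIH2 lies at 0.324 in subclone 1 and 1.53 in subclone 2.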

How the data were processed

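Messenger RNA of 3 cultured lines was measured by RNA-seq (Illumina TruSeq kit, Trizol RNA), with 1 library per line grouped by its label. The authors deposited RPKM for each listed gene, and the submitters' processing notes name the build hg19. The aligner, counter, annotation and handling of strand are not given in the sources used here. The 9 genes and all lists were chosen with earlier results of these data known, and some genes of 1 list are not reported here.

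Whole reads were recovered from the RPKM as a common step per library (89.3% of 2346 low genes fell on it within 0.01 of a read), and each gene's length was the smallest that gave whole reads, multiplied by up to 4 where it was too short for the GENCODE 29 transcripts. This rule was revised after values were seen. Reads were assigned to 96.6% of genes, and 70.2% of lengths lay within 10% of a transcript, which AFP, TF and RBP4 did not, so their read numbers, and with them their intervals, are less sure than their RPKM. The same limit holds for HNF4A, GPC6, TCN2, HFE, SPINK1, ORM2, KNG1, SEPP1, COL1A1, AMN and ASGR2. The recovery was tested on simulated data in which each gene had a GENCODE transcript length. That test does not cover genes whose length was not near one, such as AFP, TF and RBP4. Folds are ratios of RPKM with exact conditional binomial intervals, and levels have exact Poisson intervals. Genes named beyond the 9 were the 4 most abundant of each list, any changed at least 2-fold over the parent, chromosomal neighbours and nearest genes by ratio. Others were chosen after their values were seen. Positions are from GENCODE 29 on GRCh38, another build than that of the RPKM. No test was run and no p-value computed, since groups of 1 library allow none. Alternatives were 2 other added values, 5 scalings, a 1.5-fold line and other filters. Python 3.11.15, numpy 2.4.6, pandas 2.3.3, scipy 1.17.1 and matplotlib 3.10.9 were used.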

Additional observations from a re-analysis of the deposited data

Results flagged for a closer look

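ITIH2, a heavy chain partner of AMBP, had opposite directions in the subclones: against the parent, subclone 1 had a log2 ratio of -1.62 and subclone 2 one of 0.61. It was flagged because the counting interval lay below the parent in subclone 1 and above it in subclone 2. The difference was not tested, since each line had 1 library, and both ratios share the parent library. Under the 7 other scalings and added values the first ratio ranged from -1.75 to -1.54 and the second from 0.58 to 0.68.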

How the results depend on the processing

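Over 7 alternatives (2 added values and 5 scalings) 166 of 168 log2 ratios of the carrier genes moved by less than their counting interval, 2 moved (TTR and GC at 0 reads in both libraries, by centring) and 0 reversed. In subclone 2 the intervals of TTR and GC have no upper bound, so that count says little about these genes. Their log2 ratios over the parent ranged from 0.54 to 5.53 (TTR) and from 0.27 to 4.45 (GC). The lowest and highest ALB log2 ratios were 3.87 and 4.33 for subclone 1, and 4.33 and 4.81 for subclone 2, and those of TF were 2.22 and 2.40 for subclone 1. With 1 RPKM added, 1 carrier gene was higher in subclone 2 over the parent and 1 over subclone 1, since TTR and GC no longer passed. At 1.5-fold, 4 were higher in each subclone over the parent (AFP and AMBP added in subclone 1, AFP in subclone 2), 1 was lower in subclone 2 over the parent and 2 were lower in subclone 2 over subclone 1. Centring made the median in subclone 1 over the parent -0.00426. Scaling to ACTB made the median of all genes -0.13 in subclone 1 over the parent, against 0.00 as reported. Between the subclones it became 0.16 (GAPDH 0.15), against 0.03 as reported.

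Of 840 ratios of related genes and markers 34 moved and 4 reversed: between the subclones CP became 0.0241 (ACTB) and 0.0161 (GAPDH), and H19 became 0.0283 and 0.0203, against -0.10 for each as reported. For all genes, higher and lower counts of 557 and 207 (subclone 1), 606 and 246 (subclone 2) and 161 and 158 (between subclones) became 347 and 117, 380 and 150, and 80 and 77 with 1 RPKM added; 1317 and 848, 1444 and 830, and 540 and 467 at 1.5-fold; 1523 and 884, 1553 and 941, and 842 and 902 with no filter; and 233 and 71, 253 and 93, and 43 and 46 at a mean RPKM of at least 5. ACTB scaling made 328 lower in subclone 1 and moved the higher share from 72.9% to 57.8%, and between the subclones from 50.5% to 64.0% (GAPDH 62.6%). No paired analysis was possible because each group had 1 library. Depth limits AHSG, TTR, GC and GPC3, each at fewer than 10 reads in every library.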
